A study of Rattus norvegicus with 6 samples.

Results

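The genes described here are 10 regulators of the G1 phase and of entry into S phase: the D-type cyclins Ccnd1, Ccnd2 and Ccnd3, their kinases Cdk4 and Cdk6, the E-type cyclins Ccne1 and Ccne2, their kinase Cdk2, and the inhibitors Cdkn1b and Cdkn2c. They were taken by symbol, from probe sets that the platform annotation gives exactly 1 symbol, and all 10 were found, among 14217 genes so named on the array. Together they have 16 probe sets, and each gene was read by its probe set with the highest mean over all arrays; the 6 other probe sets, which belong to 5 of the genes, served as a check. Gene expression was measured on Affymetrix rat 230 2.0 arrays, 1 array per sample, in an immortalized line of keratinocytes, the cells that make up most of the epidermis, from the back skin of newborn male Sprague-Dawley rats. The 3 unirradiated samples were untreated, and the 3 irradiated samples were given a dose of 3 Gy with 56Fe ions at 1.01 GeV per nucleon, heavy charged particles of the kind met in space. No label used here names another agent or an allele for any sample, and all come from the same line. None of the labels tells how long after irradiation the RNA was taken. The title of the series names gene expression and cell cycle arrest as its subjects, and the comparison of irradiated with unirradiated samples addresses the first of these at the level of mRNA.

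In G1, growth signals raise the D-type cyclins, which activate Cdk4 and Cdk6 to phosphorylate the retinoblastoma protein. This releases E2F transcription factors, which raise cyclin E, and cyclin E with Cdk2 completes the phosphorylation and starts DNA replication. Inhibitors of the INK4 family, such as p18 encoded by Cdkn2c, bind Cdk4 and Cdk6, while p27 encoded by Cdkn1b, of the Cip/Kip family, inhibits cyclin E with Cdk2. In the epidermis, basal keratinocytes leave this cycle as they differentiate. Much of the control of these proteins lies in their breakdown and phosphorylation, which arrays do not measure.

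After irradiation the mRNA of the inhibitor Cdkn2c rose 1.42-fold by its brightest probe set, and of the 10 genes it was the only gene to pass the test. This call ended in several other settings, and averaging both probe sets of Cdkn2c gave a log2 change of -0.047. The mRNA of the 3 D-type cyclins and of Cdk4 showed no difference past the threshold, with log2 changes between -0.11 and 0.14. Ccne1 and its kinase Cdk2 each had a log2 change of 0.28, and neither passed. Intensities were compared as log2(intensity + 16), irradiated minus unirradiated, on which changes of dim genes appear smaller than they are; limma was fitted to all tested probe sets, with a call at a Benjamini-Hochberg adjusted p under 0.05. Of the 10 genes, 9 were bright enough to be tested; Cdk6 was not. Of these 9, 1 was called, against 2.77% of all 10354 genes tested in either direction and 2.00% called higher. At an unadjusted limma p under 0.05 there were 3, Cdkn2c, Ccne1 and Cdk2, against 15.7% of all genes tested. In 2 of the 9 the groups did not overlap, both with higher irradiated values, against 21.9% of all genes in either direction and 11.8% higher. The median log2 change of the 9 was 0.12, and it was -0.00097 over all genes tested.

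Nothing in the labels says that replicates came from separate cultures; the spread behind each p-value is that of these samples and may be technical. No batch is named, and whether the groups were handled differently was not tested. Over all probe sets, log2 values correlated at 0.985 to 0.988 between arrays of 1 group and at 0.983 to 0.987 across the groups. The ratio of the 3′ to the 5′ signal of the GAPDH control, a measure of RNA integrity, was 1.30 to 1.34 without and 1.09 to 1.32 with irradiation. It was 0.85 to 1.07 and 0.92 to 1.04 for beta-actin, and 0.86 to 2.06 and 1.53 to 1.85 for hexokinase. All 12 keratinocyte markers examined were present, led by Krt14, while the defining immune and endothelial markers were dim, with no mean over all 6 arrays above 15.5. The summed intensity of the keratinocyte markers was 31171 to 36102 in the unirradiated and 25880 to 28406 in the irradiated arrays. Of the 12, 5 were called lower and 0 higher, against 0.77% and 2.00% of all genes tested. The fibroblast markers summed to 425.7 to 501.3 and 352.3 to 384.5, where Col3a1 fell; the other 5 had higher irradiated means, but 4 were too dim to be tested and Col1a1 did not pass. The melanocyte markers summed to 79.1 to 90.3 and 45.6 to 67.4. The part of these shifts in the results that follow was not tested. In bulk RNA, a different share of cells in a cycle phase and a different amount of mRNA per cell cannot be told apart.

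**Figure D1:**
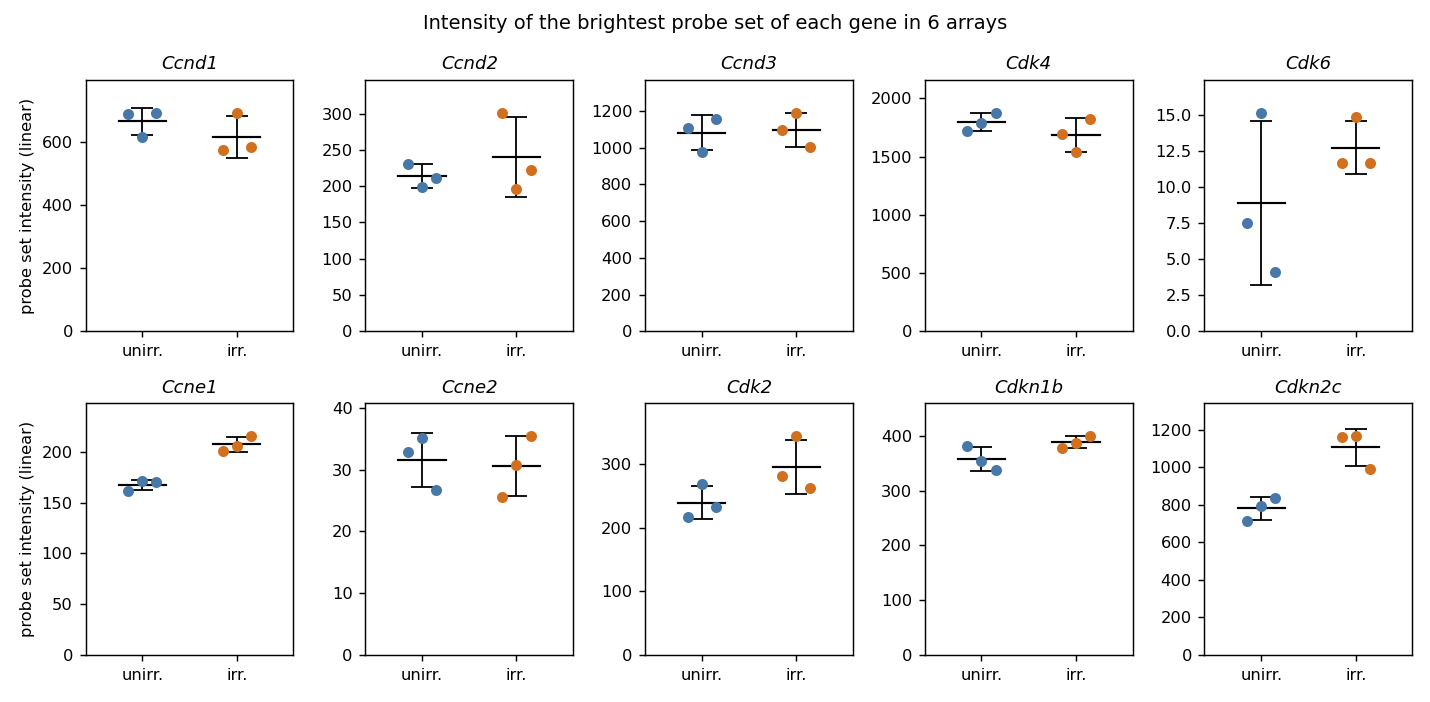
Probe set intensity (linear scale, starting at 0) of the 10 genes in the 3 unirradiated and 3 irradiated arrays; points are arrays, and bars are the mean ± SD. The groups are separate in Ccne1 and Cdkn2c and overlap in the other 8 genes.

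The D-type cyclins carry growth signals to the cell cycle; Ccnd1 encodes cyclin D1. The intensity of Ccnd1 was 686.8, 616.7 and 690.6 in the unirradiated arrays and 573.9, 692.8 and 582.1 in the irradiated ones. Of the irradiated arrays, 1 lay above every unirradiated array and 2 lay below, so the groups overlapped. The log2 change was -0.11 ± 0.09 (SE; limma adjusted p = 0.682), with a 95% confidence interval from -0.31 to 0.09. Both dimmer probe sets of Ccnd1 also had values below 0, at -0.16 and -0.08, and neither passed. These 3 probe sets read transcripts of the same gene in the same arrays, so they are not independent samples.

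Ccnd2 depended on 1 array. Its intensity was 231.0, 199.2 and 211.3 without irradiation and 301.5, 196.2 and 222.9 with it. Irradiated replicate 1 lay far above the rest, while irradiated replicate 2 was the lowest of all 6 arrays. The log2 change was 0.14 ± 0.14 (SE; limma adjusted p = 0.740), and -0.027 without irradiated replicate 1. For Ccnd3 the values were 1110.3, 975.2 and 1158.7 without and 1096.4, 1192.0 and 1006.8 with irradiation. The groups covered nearly the same range, and the log2 change was 0.02, with an interval from -0.17 to 0.22.

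Cdk4, the kinase that the D-type cyclins activate, read 1723.5, 1788.6 and 1878.5 in the unirradiated arrays and 1693.3, 1539.0 and 1824.5 in the irradiated ones. Irradiated replicate 2 was the lowest, and the groups overlapped. The log2 change was -0.09 ± 0.08 (SE; limma adjusted p = 0.684), with an interval from -0.27 to 0.08. Cdk6, which does the same work in many cell types, was read by 1 probe set, at 7.5, 15.2 and 4.1 without and 11.7, 14.9 and 11.7 with irradiation. These values lie below 18.0, the 40th percentile of mean intensity that served as the filter, so Cdk6 was not tested in the main analysis. Its difference of mean log2 values was 0.23, and in a fit without the filter it did not pass (limma adjusted p = 0.748).

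Ccne1, a cyclin that E2F factors raise late in G1, was higher in every irradiated array. Its intensity was 162.0, 171.0 and 170.0 in the unirradiated and 200.8, 206.0 and 215.5 in the irradiated arrays. The groups did not overlap, and the means were 167.7 ± 4.93 and 207.4 ± 7.45 (SD, n = 3). This is a 1.24-fold difference of means, and on the log2 scale a change of 0.28 ± 0.10 (SE), with an interval from 0.07 to 0.50. The limma adjusted p was 0.216, so Ccne1 was not called. Its log2 change stayed between 0.23 and 0.31 in the 14 other settings tried, all of which left it uncalled.

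Ccne2, the second E-type cyclin, was dim: 32.9, 35.1 and 26.7 without and 25.6, 30.7 and 35.4 with irradiation. The groups overlapped fully. On the log2 scale the change was -0.03 ± 0.17 (SE; limma adjusted p = 0.964), and a second, dimmer probe set gave 0.20 without passing. At this brightness the interval, from -0.39 to 0.33, includes the change seen in Ccne1.

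Cdk2 is the kinase partner of cyclin E. Its intensity was 217.4, 268.3 and 233.0 in the unirradiated and 281.3, 343.8 and 262.2 in the irradiated arrays. Of the irradiated arrays, 2 lay above every unirradiated array, and irradiated replicate 3 lay within their range. On the log2 scale the change was 0.28 ± 0.12 (SE; limma adjusted p = 0.321). Without irradiated replicate 2, the highest array, it was 0.18. The other probe set of Cdk2 read 100.9, 105.5 and 97.8 without and 111.6, 125.9 and 96.0 with irradiation. There irradiated replicate 3 was the lowest of all 6 arrays, and the log2 change was 0.11 (limma adjusted p = 0.779).

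Ccne1 and Cdk2, whose proteins act as a pair, were the uncalled genes with the largest changes, and the DNA upstream of both is shown for that reason. The sequences come from a table of RefSeq promoter windows (rat assembly GRCr8), in which 6 of the 10 genes were matched, from 250 bases before to 50 after the start of the transcript. Each stretch below is 150 bases long, is given 5′ to 3′ on the gene's strand and ends just outside the annotated extent of the gene. Capitals mark the words found in these stretches: the GC box GGGCGG, its reverse complement, and the CCAAT box. Counted from the start, the stretch of Ccne1 ends at -78 and that of Cdk2 at -87. In each window a further GC box lies closer to the start and is not shown, beginning at -72 in Ccne1 and at -71 in Cdk2. The first is chr1:99927987-99928136 (minus strand), and the second is chr7:1721965-1722114 (minus strand).
Ccne1: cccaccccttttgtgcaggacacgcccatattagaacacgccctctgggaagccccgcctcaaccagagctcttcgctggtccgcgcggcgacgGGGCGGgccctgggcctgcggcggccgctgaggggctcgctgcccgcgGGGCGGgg
Cdk2: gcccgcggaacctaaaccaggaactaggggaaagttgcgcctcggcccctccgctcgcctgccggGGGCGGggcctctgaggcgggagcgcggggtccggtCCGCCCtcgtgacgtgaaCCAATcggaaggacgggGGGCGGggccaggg

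Searched on both strands, the GC box was in all 6 windows, and in 57.5% of the 11700 windows of genes on the array. The CCAAT box was in 3 of 6, against 37.3%. The E2F words TTTCGCGC, TTTGGCGC, TTTCCCGC and TTTGCCGC were in 0 of 6, against 3.65%, and the CHR word TTTGAA was in 0 of 6, against 12.3%. These are matches of letters in a short window. The window of Cdkn2c lies inside the extent of a longer annotated transcript, so only the 30 bases around its single GC box, chr5:129645057-129645086 (minus strand), are shown.
Cdkn2c: caccgagctgctGGGCGGccgccaagaagt

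Cdkn1b encodes p27, which holds cyclin E and Cdk2 inactive in resting cells. Its intensity was 381.6, 353.7 and 337.9 without and 378.7, 387.8 and 399.7 with irradiation. Of the irradiated arrays, 2 exceeded every unirradiated array, by little. On the log2 scale Cdkn1b had 0.12 ± 0.09 (SE; limma adjusted p = 0.629), with an interval from -0.08 to 0.31. A second probe set of Cdkn1b went the other way, with a log2 change of -0.08 that did not pass either. Its unirradiated values were spread more widely, at 272.1, 269.8 and 360.1.

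Cdkn2c encodes p18, an INK4 inhibitor of Cdk4 and Cdk6. Its brightest probe set read 715.0, 793.0 and 837.7 in the unirradiated and 1163.4, 1166.2 and 993.6 in the irradiated arrays. Every irradiated array lay above every unirradiated one, with irradiated replicate 3 the lowest of its group. The means were 781.9 ± 62.1 and 1107.7 ± 98.9 (SD, n = 3). On the log2 scale this was a rise of 0.49 ± 0.09 (SE; limma adjusted p = 0.0133), with an interval from 0.29 to 0.69. That lower bound lies above the upper bounds of 3 of the 8 uncalled genes, Ccnd1, Ccnd3 and Cdk4, and below those of the other 5.

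The call of Cdkn2c ended without irradiated replicate 1 (limma adjusted p = 0.0689), irradiated replicate 2 (0.0794) or unirradiated replicate 1 (0.0753), without the filter on dim probe sets (0.0520) and with the variance modelled without an intensity trend (0.110); the log2 change was between 0.43 and 0.57 with any 1 array left out. The other probe set of Cdkn2c went in the opposite direction, at 13.4, 24.2 and 25.9 without and 6.1, 7.2 and 12.5 with irradiation, a difference of mean log2 values of -0.59. It lies below the filter, its name marks it as one whose probes may also match other transcripts, and in the fit without the filter it did not pass (limma adjusted p = 0.312). Averaging both probe sets gave Cdkn2c a log2 change of -0.047.

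**Figure D2:**
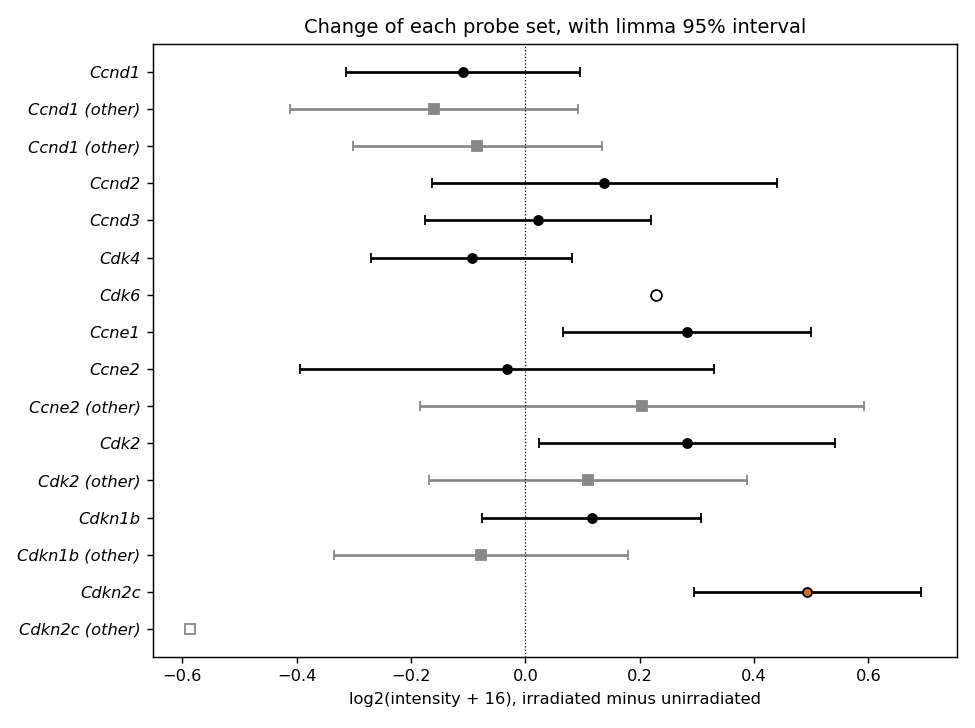
Change of each of the 16 probe sets on the log2(intensity + 16) scale, irradiated minus unirradiated, with limma 95% intervals; circles are the brightest probe set of a gene, grey squares are others, open symbols were too dim to be tested, and the orange point passed the test. Cdkn2c stands at 0.49 by its main probe set and at -0.59 by its dim one.

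Whether genes of the same role changed differently was examined as the difference of log2 values within each array, for 6 pairs. With 3 arrays against 3, a two-sided exact permutation test cannot give a p below 0.1, so no pair could pass. The change of Cdkn1b was 0.38 below that of Cdkn2c, with all 3 irradiated arrays below all 3 unirradiated ones (exact permutation p = 0.1, adjusted over the 6 pairs 0.2). The gap was narrow: measured from the unirradiated mean, the highest irradiated array stood at -0.187 and the lowest unirradiated array at -0.177. In both genes the probe set not used here had a change of the opposite sign, -0.08 for Cdkn1b and -0.59 for Cdkn2c. The change of Ccne1 exceeded that of Ccne2 by 0.31, and again the groups did not overlap (exact permutation p = 0.1, adjusted 0.2). That difference uses the main probe set of Ccne2, at -0.03, while its other probe set had a log2 change of 0.20. The change of Ccnd1, at -0.11, was 0.13 below that of Ccnd3, at 0.02, with the same p and no overlap. For Ccnd1 against Ccnd2, Ccnd2 against Ccnd3 and Cdk4 against Cdk6 the exact permutation p was 0.4, 0.7 and 0.3. In both pairs with Ccnd2 the irradiated arrays were spread widely.

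Other genes of the G1 and S pathway were examined through a list of 51, chosen, like the 10, with earlier results of these data known. Of these, 47 were named on the array and 45 were tested: 4 rose, 2 fell and 39 did not pass, with a median log2 change of 0.08. This is 13.3% called, next to 2.77% of all genes tested. The genes that rose were Cdc25b, Wee1, Fzr1 and Cdc45, and those that fell were Myc and Skp1.

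Among 6 other inhibitors, 0 of 5 tested were called. A close relative of Cdkn2c is Cdkn2d, which encodes the INK4 inhibitor p19. Cdkn2d read 468.6, 542.9 and 597.3 without and 695.5, 687.5 and 720.1 with irradiation. All irradiated arrays were higher, and the log2 change was 0.38 ± 0.09 (SE), with a limma adjusted p of 0.0642 that just missed the threshold. A second probe set of Cdkn2d, somewhat dimmer, had a change of 0.39 and passed (limma adjusted p = 0.0234). The INK4 genes Cdkn2a and Cdkn2b had log2 changes of -0.10 and -0.01, and the phosphatase gene Cdkn3 had 0.16. Cdkn1a, which encodes p21, had a log2 change of 0.0093, with an interval from -0.15 to 0.17.

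Of 12 tested pocket protein and E2F genes, 0 passed limma. Their median change was 0.28, and 10 were higher than 0. In 6 the groups did not overlap, each with higher irradiated values, next to 21.9% of all genes tested in either direction and 11.8% higher. E2f1, an activator of S phase genes, read 96.7, 90.3 and 82.4 without and 135.6, 121.5 and 132.7 with irradiation. Its groups were well separated, and its change of 0.46 ± 0.12 (SE) missed the threshold (limma adjusted p = 0.0776). E2f5, a repressor that binds the pocket proteins, had a change of 0.45 (limma adjusted p = 0.0604). Ccna2, the cyclin that takes over Cdk2 in S phase, had 0.36 (limma adjusted p = 0.212), again with no overlap between the groups.

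Of 6 tested genes that switch cell cycle kinases on and off, 2 rose and 4 did not pass. Cdc25b, whose phosphatase acts before mitosis, rose by a log2 change of 1.16. Wee1, which encodes a kinase that inactivates some cell cycle kinases, rose by 0.82. The Wee1 probe set is of a kind that may match several transcripts, and a dimmer one had 0.33 and did not pass; with both averaged, the call of Wee1 ended (limma adjusted p = 0.114). The 3 genes of the kinase that activates Cdk2 and Cdk4 had values below 0, Cdk7 at -0.18, Ccnh at -0.19 and Mnat1 at -0.02, and none passed. Neither did Cdc25a, the phosphatase best known for acting on Cdk2, at -0.09.

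Fzr1, which directs the anaphase-promoting complex during G1, rose from 531.0 ± 36.8 to 949.1 ± 26.2 (SD, n = 3), and its 2 other probe sets also passed, at 0.61 and 0.80. Skp1, a core subunit of the ubiquitin ligase that turns over p27 and cyclin E, fell from 3427.0 ± 116.5 to 2672.6 ± 208.1. On the log2 scale Skp1 fell by 0.36 (limma adjusted p = 0.0311). That call ended with quantile normalization (limma adjusted p = 0.141), without the filter (0.110), without the intensity trend (0.183) and in all fits without 1 array except that without irradiated replicate 3 (up to 0.140). Among inputs to cyclin D and p27, the transcription factor gene Myc fell (-0.51 in log2), a call that ended without the intensity trend (limma adjusted p = 0.0539). Ctnnb1, which encodes beta-catenin, had -0.14 and did not pass. Of the genes downstream of Cdk2 at replication origins, Cdc45, a helicase subunit, rose by 0.50 (limma adjusted p = 0.0197), and Cdt1 had 0.25 and did not pass. The call of Cdc45 ended without irradiated replicate 1 or 2 or unirradiated replicate 1 or 3 (limma adjusted p up to 0.109), without the filter (0.0763), without the intensity trend (0.129) and with probe sets averaged (0.106). Its probe set is also of a kind that may match other transcripts, and its 2 other tested probe sets had 0.32 and 0.46 and did not pass.

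**Figure D3:**
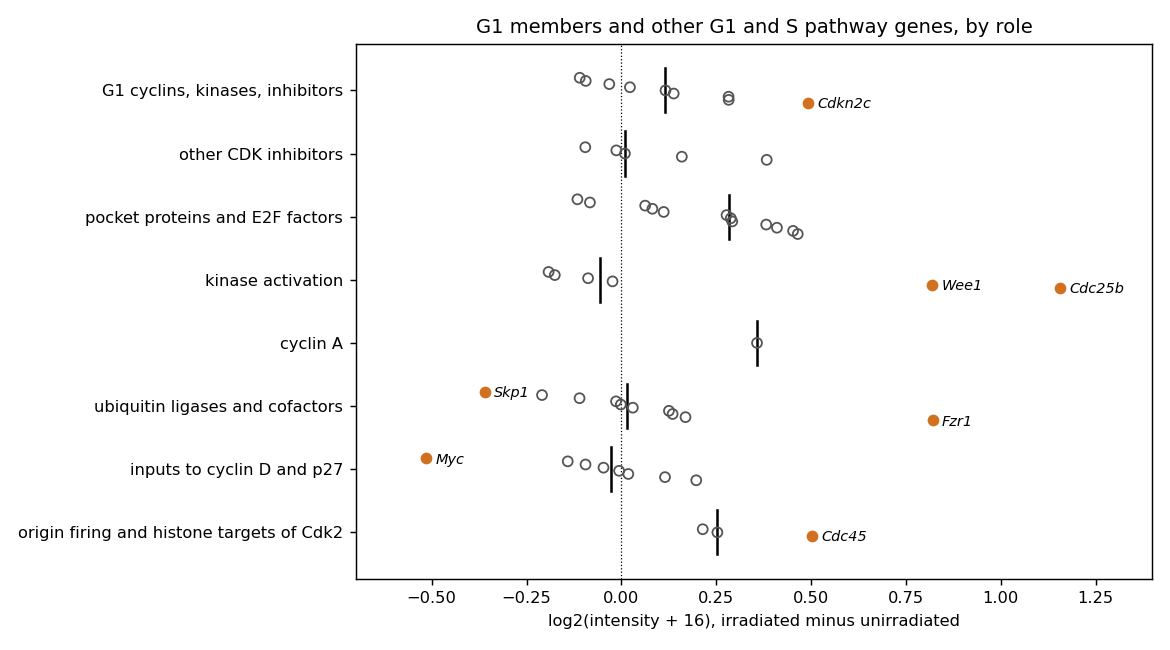
Log2 change, irradiated minus unirradiated, of the 9 tested genes described here and of 45 tested genes of the pathway, in rows by role; filled orange points passed the test, open points did not, and black bars are row medians. Cdkn2c is the filled point of the top row, while Cdc25b (1.16) and Myc (-0.51) are the extremes.

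For Cdkn2c, the gene that passed, the genes with the most similar values over the 6 arrays were sought among 10353 other tested genes. The highest Pearson correlations of log2 values were with Mxd3 (0.995), Rnf26 (0.994) and Haspin (0.993). All points share the same 6 arrays in 2 groups, so these values are a description. Mxd3 read 97.2, 120.4 and 121.1 without and 222.1, 211.0 and 170.2 with irradiation. As in Cdkn2c, irradiated replicate 3 was the lowest irradiated array and unirradiated replicate 1 the lowest of all.

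**Figure D4:**
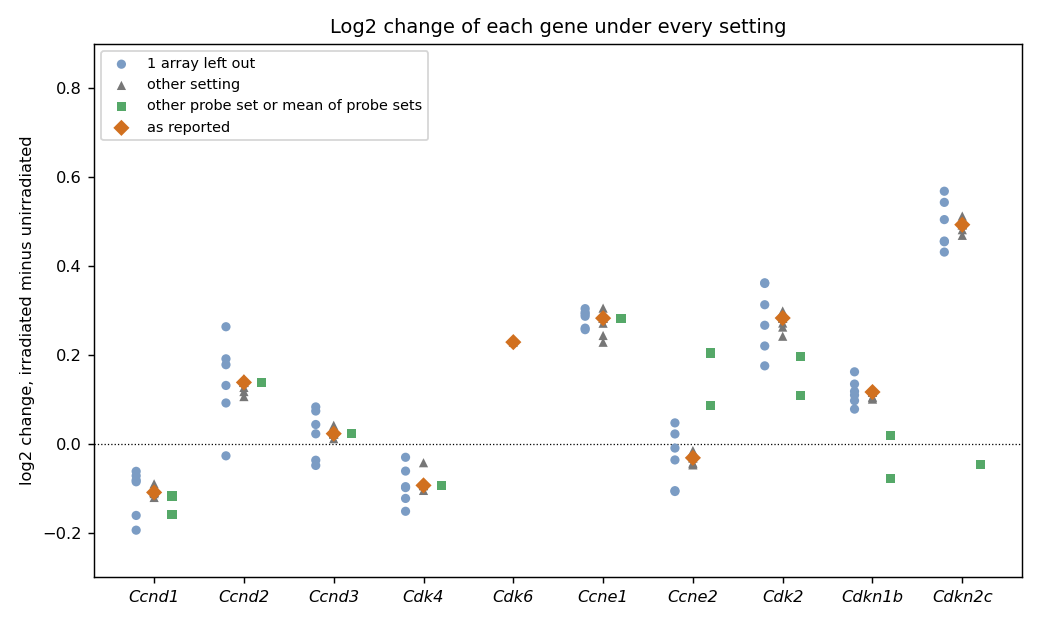
Log2 change of each of the 10 genes as reported (orange diamonds), with 1 array left out (blue circles), under other settings of the analysis (grey triangles) and by another probe set or the mean of probe sets (green squares). Ccnd2 falls to -0.027 in 1 fit, and Cdkn2c leaves its range of 0.43 to 0.57 only when its dim probe set is averaged in.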

How the data were processed

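RNA of 6 samples was extracted with Trizol and labelled with biotin for 1 array each, per the labels' protocols. The submitters' design text names BRB ArrayTools 3.3.0; how probes were summarised is not given in the sources used here. Per array, the authors' deposited table holds 1 intensity per probe set, not in log form. Their means after trimming 2% at each end were 150.04 to 150.05 on all arrays, so the table was kept as deposited. Groups came from the source descriptions.

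Of 31099 probe sets, 57 controls and those below the 40th percentile of mean intensity were left out, and 18632 were tested on log2(intensity + 16) with limma 3.58.1 in R 4.3.3 (lmFit, eBayes with an intensity trend, two-sided, no covariate), adjusted by Benjamini-Hochberg over all of them. With 3 arrays per group, precision is limited: the median SE over genes was 0.12. The procedure was tested on simulated data in which 200 of 18632 probe sets were changed. The noise was normal, with the spread that limma estimated for each probe set, and independent between probe sets. There it recovered 48% of log2 changes of 0.5 and 93% of log2 changes of 1. Under such conditions many changes of 0.5 or smaller would be missed, and the share missed in the real data is not known. Of the probe sets, 20826 had 1 symbol. Genes are named here if they are among the 10, are called or have 1 of the 2 smallest p-values of their role in the pathway list, or resemble a called gene; others were added after their values were seen. The members and lists were chosen with earlier results of these data known. Alternatives were other pseudocounts, filters, normalizations, variance models and probe set rules, and each array left out.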

Additional observations from a re-analysis of the deposited data

How the results depend on the processing

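Of 130 values of the 10 genes under other settings, 116 kept their direction and side of the threshold. Other filters and variance models leave a log2 change as it is, so its direction could not turn there. The same holds for averaging in genes with 1 probe set. Cdkn2c, the only called gene, kept both in 8 of its 14 other settings. The number called among the 10 was 0 without the intensity trend, without the filter and with probe sets averaged (2, 3 and 1 at an unadjusted limma p under 0.05), and 0 to 1 with any 1 array left out. The pathway list had 3 calls without the trend and 4 to 6 without 1 array. Over all probe sets 385 were called, 170 without the trend, 223 without the filter and 201 to 286 without 1 array (201 without irradiated replicate 2, 229 without irradiated replicate 1, 227 without unirradiated replicate 1), where fewer arrays give less power; the other causes were not tested. Signs turned for Ccnd2 without irradiated replicate 1 (-0.027; -0.027 to 0.26 without 1 array), Ccnd3 without irradiated replicate 2 (-0.037) or unirradiated replicate 2 (-0.049; up to 0.083 without 1 array), Ccne2 without irradiated replicate 1 (0.047) or unirradiated replicate 2 (0.022; from -0.11 without 1 array), by its second probe set (0.20) and by the mean of both (0.086), Cdkn1b by its second probe set (-0.078) and Cdkn2c by the mean of both (-0.047). No paired analysis was made because the labels name no pairs. They number the samples of the groups differently, and whether samples were paired is not known. The replicate numbers used here only name samples, in the order listed.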

Other observations

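Some values of the pathway lie outside the main reading of a gene and are given here because they were noticed after the data were seen. Cks1b, a cofactor for the breakdown of p27, had a log2 change of 0.03 by its brightest probe set, while a dimmer one, at a mean intensity of 1215, had 0.47 and passed (limma adjusted p = 0.0070). For Tfdp2, a partner of E2F factors, a dim probe set stood at a log2 change of 0.89 without passing (limma adjusted p = 0.0658), next to 0.38 for the main one. Below the filter, Cdkn1c, which encodes the inhibitor p57, read 3.0, 11.2 and 3.8 without and 15.1, 18.0 and 11.7 with irradiation. Ccna1 read 2.7, 2.9 and 2.6 without and 9.0, 9.3 and 6.5 with it. In both genes every irradiated array was higher, at intensities below the filter, and in the fit without it neither passed (limma adjusted p = 0.348 for Cdkn1c and 0.263 for Ccna1).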
